A study of Mus musculus with 12 samples.

Results

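The 10 genes described here encode cell adhesion molecules built from immunoglobulin domains: Ncam1, Mcam, Bcam, Alcam, Igsf8, Vcam1, Icam1, Cadm1, L1cam and Bsg. They were taken by gene symbol from the deposited expression table, and all 10 were found among its 17576 genes. Total RNA was sequenced from C18-4, an established line of mouse spermatogonial stem cells whose strain the labels give as IRC mouse. Cells of 8276KD had received a virus that inhibits lncRNA8276, a long noncoding RNA, and cells of 8276OV a virus that overexpresses it. The 3NC and 5NC cells are the other 2 groups of the series, and what their names stand for is not spelled out. The design text places 5NC next to overexpression and 3NC next to knockdown, and they were used as the respective controls. Each of the 4 groups holds 3 libraries of this single line, and no age or time after transfection is given. Nothing states that the 3 libraries of a group are separate cultures, so p-values measure only how far these libraries spread, which may be technical. The abundance of lncRNA8276 was not analysed here, and the labels were not checked by it.

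Immunoglobulin-type adhesion molecules are single-pass or lipid-anchored surface proteins that join neighbouring cells by binding a like molecule, or bind integrins, laminin or other partners in cis or trans. Many of them also signal, and several are released from the surface by metalloproteinases. In the testis they take part in the contacts between germ cells and Sertoli cells, and Bsg carries monocarboxylate transporters to the membrane and is needed for male fertility in mice.

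All values were read as FPKM, fragments scaled by transcript length and library size. No header or label names the unit, and TPM is possible. Column sums ranged from 533099 to 561940, and 10929 to 11165 genes reached 1 in a library. Genes listed above 0 in a single library, taken as 1 fragment each, imply roughly 7.25 M to 12.001 M fragments per library. The labelled cell type was checked against marker lists. Of 12 markers of spermatogonia and other germ cells, only Id4 reached 1 in any library, and the summed level of the list ranged from 0.73 to 2.36. All 6 mesothelial markers reached 1 in all 12 libraries, with summed levels of 663 to 681 in 3NC, 1257 to 1277 in 5NC, 910 to 1036 in 8276KD and 903 to 1027 in 8276OV. Of the myoid markers 4 of 6 and of the Sertoli markers 3 of 7 reached 1 in every library. Among these Sertoli markers, Wt1 (49.0 to 62.8) is also on the mesothelial list. Of the 4 Leydig markers in the table, 1 (Star) reached 1 in any library. No endothelial marker reached 1 in any library, and of the leukocyte markers only Cd68 did. At these levels the germ cell list did not bear out the labelled cell type. Because these are bulk libraries, fewer cells of a type and less RNA per cell cannot be told apart.

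The levels of the 10 genes ran from near 0 to among the most abundant transcripts of the table. Bsg was the highest, with a median of 435 over the 12 libraries and a mean above that of 98.9% of the genes in the table. Bcam (54.6), Mcam (43.4), Igsf8 (21.7) and Ncam1 (10.9) followed, and then Cadm1 (3.82), Vcam1 (3.49) and Alcam (2.09). Icam1 had a median of 0.35 and L1cam of 0.01, so neither passed the filter of 1 or more in 3 or more libraries, and 8 of the 10 genes were tested. Bcam and Mcam exchanged places: their ranges overlapped in 3NC and in 8276KD, Bcam was above Mcam in every 5NC library, and Mcam was above Bcam in every 8276OV library. Cadm1 was above Vcam1 without overlap in 3NC, 5NC and 8276KD, and Vcam1 was above Cadm1 in 8276OV.

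**Figure D1:**
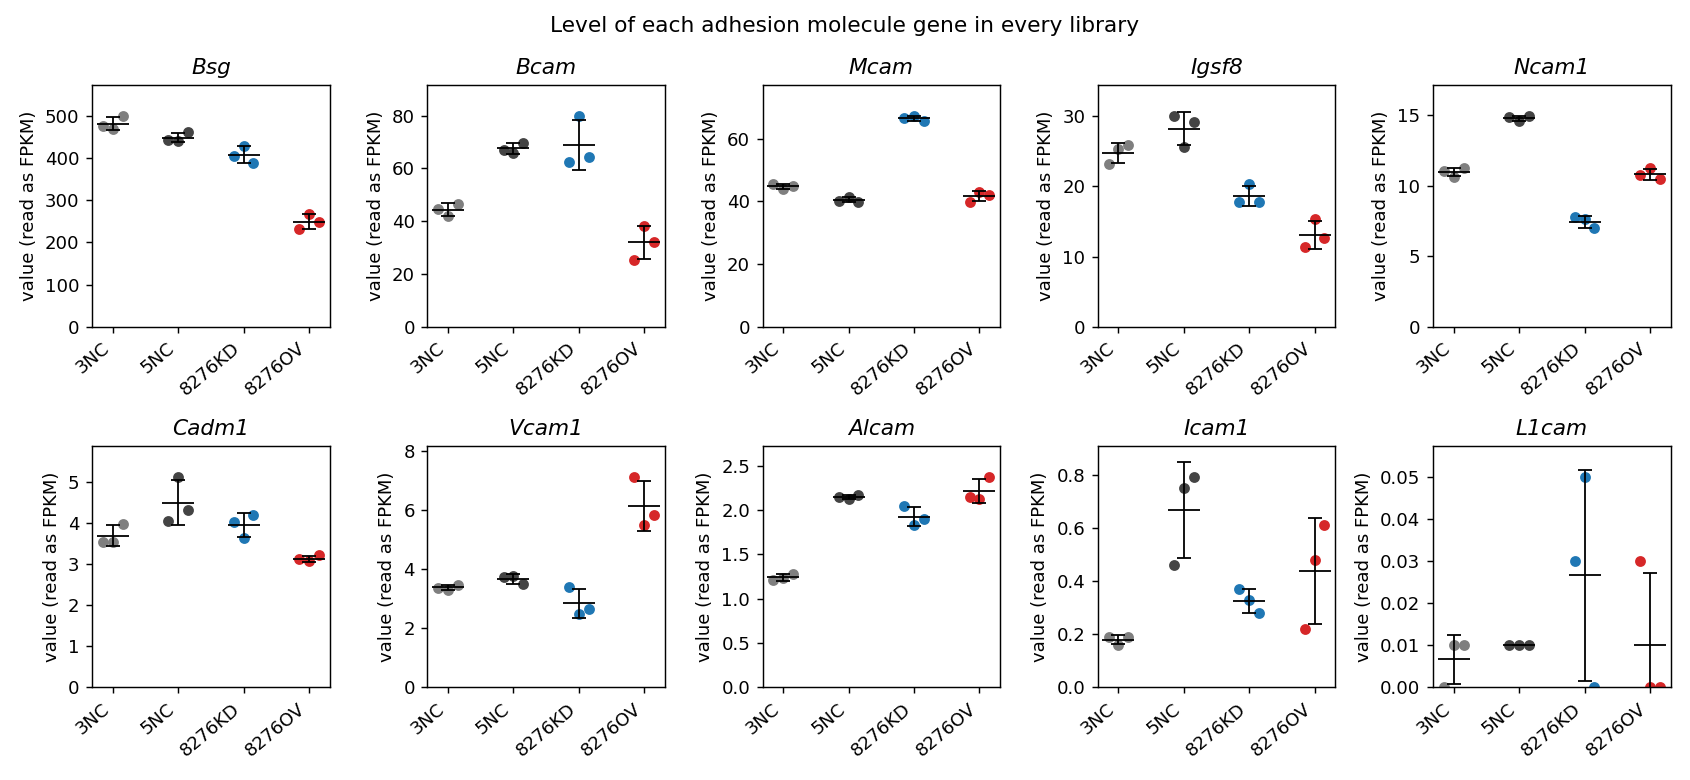
Level of each of the 10 adhesion genes in each library (read as FPKM), by group, with a horizontal bar at the mean of 3 libraries and error bars of 1 SD. Mcam stands highest in the 8276KD libraries (65.7 to 67.1), while Bsg and Igsf8 are lowest in the 8276OV libraries (232 to 268 and 11.3 to 15.3).

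Promoters are shown for 3 of the genes, since Bcam and Igsf8 fell together in the overexpression comparison and Mcam showed the largest rise shared by both knockdown comparisons. Each is the 250 bases before the start site, 5′ to 3′ on the strand of the gene, from RefSeq on GRCm38.p6. Capitals mark GC boxes (GGGCGG, either strand) and the cAMP response element (TGACGTCA). The Mcam window is chr9:44134408-44134657 on the plus strand, that of Igsf8 is chr1:172312117-172312366 on the plus strand, and that of Bcam is chr7:19770533-19770782 on the minus strand.
Mcam: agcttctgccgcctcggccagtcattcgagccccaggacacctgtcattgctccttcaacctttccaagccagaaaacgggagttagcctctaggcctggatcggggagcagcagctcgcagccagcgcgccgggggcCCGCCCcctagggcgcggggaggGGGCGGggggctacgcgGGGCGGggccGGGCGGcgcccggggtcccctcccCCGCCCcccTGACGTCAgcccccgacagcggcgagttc
Igsf8: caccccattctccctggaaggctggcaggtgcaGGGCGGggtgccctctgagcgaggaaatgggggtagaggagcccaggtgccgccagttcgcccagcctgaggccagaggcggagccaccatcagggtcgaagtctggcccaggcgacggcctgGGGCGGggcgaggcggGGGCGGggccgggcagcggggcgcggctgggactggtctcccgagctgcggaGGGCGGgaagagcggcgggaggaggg
Bcam: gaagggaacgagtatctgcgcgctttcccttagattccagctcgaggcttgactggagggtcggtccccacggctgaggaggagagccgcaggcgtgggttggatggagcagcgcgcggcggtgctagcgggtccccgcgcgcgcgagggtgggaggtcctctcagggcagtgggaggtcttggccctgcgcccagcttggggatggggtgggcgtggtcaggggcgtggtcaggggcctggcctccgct

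All 3 windows are rich in G and C (73.6% for Mcam, 74.8% for Igsf8 and 70% for Bcam) and hold 25, 21 and 22 CpG dinucleotides. The Mcam window holds 5 GC boxes and 1 cAMP response element, a palindrome from base -29 to base -22. Igsf8 holds 4 GC boxes. The Bcam window has no match to these motifs, nor to TATAAA or CCAAT, on either strand. Over 27025 promoter windows of this length, 32.9% hold GGGCGG, 1.62% TGACGTCA, 13% TATAAA and 34.5% CCAAT. These are matches of letters and not evidence of binding. RefSeq promoters were matched for 6 of the 10 genes.

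Among the molecules that bind their own kind, Ncam1, the neural cell adhesion molecule, was lowest under knockdown. Ncam1 (gene 17967, chromosome 9, 49502129 to 49799393, minus strand) measured 11.1, 10.6 and 11.2 in 3NC, 14.9, 14.6 and 14.9 in 5NC, 7.78, 7.61 and 6.97 in 8276KD, and 10.8, 11.2 and 10.5 in 8276OV. The 8276KD libraries lay below all others, the 5NC libraries above all others, and the 8276OV libraries overlapped those of 3NC. From 3NC to 8276KD Ncam1 fell from a mean of 10.97 ± 0.31 to 7.45 ± 0.43 (SD, n = 3; log2 change -0.50 with SE 0.054, adjusted p = 1.06e-05), and against 5NC the log2 fold change was -0.90 (adjusted p = 1.90e-08). Under overexpression it fell from 14.8 ± 0.18 in 5NC to 10.8 ± 0.39 (log2 change -0.42 with SE 0.054, adjusted p = 1.17e-05). That fall was not seen against 3NC, where the log2 difference was -0.019 (adjusted p = 0.761).

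Cadm1, which holds spermatogenic cells to Sertoli cells, was low in all groups. Its values (gene 54725, chromosome 9, 47530170 to 47862280, plus strand) were 3.55, 3.55 and 3.99 in 3NC, 4.05, 5.12 and 4.33 in 5NC, 4.02, 3.64 and 4.21 in 8276KD, and 3.12, 3.07 and 3.22 in 8276OV. The 8276OV libraries lay below all others, and the 8276KD libraries overlapped both controls. Cadm1 fell from 4.50 ± 0.55 in 5NC to 3.14 ± 0.076 in 8276OV (log2 change -0.41 with SE 0.079, adjusted p = 3.60e-04), and against 3NC by 0.18 (adjusted p = 0.0491). The knockdown difference was 0.077 (adjusted p = 0.460).

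Alcam, a homophilic molecule that also binds Cd6 on T cells, differed by 0.49 on the log2 scale between the control groups, more than between either manipulation and its listed control. Alcam (gene 11658, chromosome 16, 52248996 to 52453081, minus strand) measured 1.21, 1.23 and 1.28 in 3NC against 2.15, 2.13 and 2.17 in 5NC, 2.04, 1.83 and 1.90 in 8276KD, and 2.15, 2.13 and 2.37 in 8276OV. The 3NC libraries stood below all others, and 8276OV overlapped 5NC. Alcam rose under knockdown relative to 3NC (1.24 ± 0.036 to 1.92 ± 0.11, log2 change 0.38 with SE 0.064, adjusted p = 3.92e-04), whereas against 5NC the difference was -0.11 (adjusted p = 0.167). The overexpression difference was 0.029 against 5NC (adjusted p = 0.688) and 0.52 against 3NC (adjusted p = 6.23e-06). L1cam, a neural homophilic molecule (gene 16728, chromosome X, 73853778 to 73880838, minus strand), was between 0 and 0.05 in every library. Such values correspond to fewer than 3 fragments, and no difference was detectable at this depth.

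Mcam, the melanoma cell adhesion molecule and a receptor of laminin and galectins, rose under knockdown whichever control was used. Mcam (gene 84004, chromosome 9, 44134658 to 44142727, plus strand) measured 45.7, 43.9 and 44.9 in 3NC, 40.1, 41.5 and 39.95 in 5NC, 66.8, 67.1 and 65.7 in 8276KD, and 39.8, 43.0 and 42.0 in 8276OV. The 3 knockdown values lay above the 9 others and close to each other. Mcam rose from 44.8 ± 0.89 in 3NC to 66.5 ± 0.73 in 8276KD (SD, n = 3; log2 change 0.56 with SE 0.042, adjusted p = 4.39e-07), and by 0.70 against 5NC (adjusted p = 1.90e-08). Under overexpression the log2 difference was 0.037 against 5NC (adjusted p = 0.430) and -0.11 against 3NC (adjusted p = 0.0347).

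Bcam, the Lutheran laminin receptor, moved in opposite directions in the pair of manipulations as compared with their listed controls. Bcam (gene 57278, chromosome 7, 19756138 to 19770532, minus strand) measured 44.5, 41.9 and 46.7 in 3NC, 67.1, 65.8 and 69.8 in 5NC, 62.5, 79.7 and 64.4 in 8276KD, and 25.5, 38.2 and 32.2 in 8276OV. The 8276OV libraries were below every other library, and 8276KD overlapped 5NC but not 3NC. Bcam fell from 67.6 ± 2.0 to 32.0 ± 6.4 under overexpression (log2 change -1.07 with SE 0.12, adjusted p = 2.98e-06) and by 0.48 against 3NC (adjusted p = 0.00209). Under knockdown it rose from 44.3 ± 2.4 to 68.8 ± 9.4 (log2 change 0.62 with SE 0.12, adjusted p = 0.00102), but against 5NC the difference was 0.018 (adjusted p = 0.906).

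Igsf8, a partner of the tetraspanins Cd9 and Cd81, was lower in both manipulations than in both controls. Igsf8 (gene 140559, chromosome 1, 172312367 to 172319843, plus strand) measured 23.1, 25.3 and 26.0 in 3NC, 30.0, 25.6 and 29.2 in 5NC, 17.8, 20.3 and 17.8 in 8276KD, and 11.3, 15.3 and 12.7 in 8276OV. The control groups overlapped each other and neither manipulated group overlapped any control. Igsf8 fell from 28.3 ± 2.3 in 5NC to 13.1 ± 2.0 under overexpression (log2 change -1.06 with SE 0.095, adjusted p = 6.88e-07) and by 0.88 against 3NC (adjusted p = 1.92e-06). Under knockdown it fell from 24.8 ± 1.5 in 3NC to 18.6 ± 1.5 (log2 change -0.40 with SE 0.095, adjusted p = 0.00501) and by 0.58 against 5NC (adjusted p = 1.93e-04). GENCODE places antisense transcripts over parts of Ncam1, Mcam, Bcam, Vcam1 and Icam1. Whether the counting used strand is not given in the sources used here.

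Vcam1, the endothelial and stromal ligand of the integrin made of Itga4 and Itgb1, was the 1 of 8 tested members that rose under overexpression against 5NC without correction for GC content. Vcam1 (gene 22329, chromosome 3, 116110020 to 116129688, minus strand) measured 3.37, 3.31 and 3.48 in 3NC, 3.73, 3.79 and 3.49 in 5NC, 3.39, 2.50 and 2.64 in 8276KD, and 7.12, 5.49 and 5.84 in 8276OV. The 8276OV libraries were above all others, and 1 knockdown library lay within the range of 3NC. Vcam1 rose from 3.67 ± 0.16 in 5NC to 6.15 ± 0.86 in 8276OV (log2 change 0.61 with SE 0.094, adjusted p = 5.86e-05), and by 0.70 against 3NC (adjusted p = 1.57e-05). Under knockdown the difference was -0.20 (adjusted p = 0.114). It passed the threshold without 8276KD replicate 1 (-0.30, adjusted p = 0.0222) and against 5NC (-0.29, adjusted p = 0.0193).

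Icam1, which binds the leukocyte integrins Itgal and Itgam paired with Itgb2, stayed below 1. Its values (gene 15894, chromosome 9, 21015940 to 21028814, plus strand) were 0.19, 0.16 and 0.19 in 3NC, 0.46, 0.75 and 0.79 in 5NC, 0.37, 0.33 and 0.28 in 8276KD, and 0.22, 0.48 and 0.61 in 8276OV. All 9 other libraries lay above the 3NC libraries, and 8276OV overlapped 5NC. These values correspond to about 4.04 to 21.8 fragments. When the filter on low values was dropped, Icam1 was higher in 5NC than in 3NC by 0.49 (SE 0.097, adjusted p = 0.00201), with a difference of 0.17 under knockdown (adjusted p = 0.253) and of -0.22 under overexpression (adjusted p = 0.0857). Of the leukocyte-side receptors, Itga4 did not exceed 0.03, Itgal 0.06 or Itgb2 0.77 in any library. Itgb7, another integrin chain on the list of partners, was higher, with means of 2.76 in 3NC, 0.48 in 5NC, 0.66 in 8276KD and 0.37 in 8276OV. Itgb1, shared by many integrins, ranged from 264 to 374.

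Bsg, basigin, a chaperone of the lactate transporters Slc16a1 and Slc16a3 and a receptor of cyclophilin A (Ppia), was lowest under overexpression. Bsg (gene 12215, chromosome 10, 79704358 to 79711979, plus strand) measured 477, 470.4 and 499 in 3NC, 443, 442 and 462 in 5NC, 406, 429 and 389 in 8276KD, and 232, 268 and 249 in 8276OV. The 4 groups did not overlap, in the order 3NC, 5NC, 8276KD and 8276OV. Bsg fell from 449 ± 11 in 5NC to 249 ± 18 under overexpression (SD, n = 3; log2 change -0.85 with SE 0.053, adjusted p = 7.28e-08), and by 0.95 against 3NC (adjusted p = 4.38e-09). Under knockdown it fell from 482 ± 15 to 408 ± 20 (log2 change -0.24 with SE 0.053, adjusted p = 0.00281), and by 0.14 against 5NC (adjusted p = 0.0401).

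The other members of the basigin family went the other way under overexpression. Nptn, neuroplastin, had means of 79.2 in 3NC, 85.8 in 5NC, 101 in 8276KD and 121 in 8276OV. Embigin (Emb), which like Bsg escorts lactate transporters, had means of 24.2, 27.0, 32.4 and 35.99 in the same order. Nptn rose by 0.49 (adjusted p = 1.16e-05) and Emb by 0.40 (adjusted p = 2.17e-05) under overexpression, and by 0.34 (adjusted p = 8.38e-04) and 0.40 (adjusted p = 8.77e-05) under knockdown, on the log2 scale. Against the other control both still passed the threshold in either manipulation, with log2 fold changes of 0.61 for Nptn and 0.55 for Emb under overexpression and 0.23 and 0.25 under knockdown. With GC correction the overexpression values were 0.14 for Nptn (adjusted p = 0.00733) and 0.21 for Emb (adjusted p = 3.00e-04). Of the escorted transporters, Slc16a3 had means of 139 in 3NC, 41.0 in 5NC, 95.3 in 8276KD and 24.7 in 8276OV, so the controls differed from each other by more than either did from its manipulation. Slc16a3 fell by 0.72 under overexpression (adjusted p = 1.23e-05), or by 0.21 with GC correction (adjusted p = 0.00308), and Slc16a1 rose by 0.17 (adjusted p = 0.00662), or -0.10 with correction for GC content (adjusted p = 0.0220).

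Setting 8276OV against 5NC asks what followed overexpression of lncRNA8276. Vcam1 rose, Bsg, Igsf8, Bcam, Ncam1 and Cadm1 fell, and Mcam and Alcam did not pass the threshold. Thus 6 of 8 tested members were called, 1 higher and 5 lower, where 74.4% of all tested genes were called (30.3% higher and 44.1% lower), so the share called is near the background. The 3 values of 1 group lay all above those of the other for 6 of 8 members, and for 77.6% of all tested genes. The median log2 fold change of the 8 was -0.41, beside -0.088 over all tested genes. Against 3NC, 7 of 8 were called, 2 higher and 5 lower, where 75.2% of all genes were (33.5% higher and 41.7% lower). Both comparisons use the same 8276OV libraries. The summed mesothelial markers were lower in 8276OV (903 to 1027) than in 5NC (1257 to 1277), mostly through Upk3b (means of 493 and 791.5), while Upk1b was higher (150.2 and 111). Of the 6 markers 1 rose and 3 fell, or 3 rose and 2 fell with GC correction, and their part in these results was not tested.

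Setting 8276KD against 3NC asks what followed inhibition of lncRNA8276. Mcam, Bcam and Alcam rose, Ncam1, Igsf8 and Bsg fell, and Vcam1 and Cadm1 did not pass the threshold. These are 6 of 8 called, 3 in each direction, where 39.4% of all tested genes were called (20.0% higher and 19.5% lower). Groups did not overlap for 6 of 8 members and for 49.6% of all tested genes. The median of the 8 was -0.060, beside -0.0048 over all tested genes. Against 5NC, 5 of 8 were called, 1 higher and 4 lower, where 55.3% of all genes were (24.7% higher and 30.5% lower). Of the 6 called against 3NC, Mcam, Ncam1, Igsf8 and Bsg kept call and direction against 5NC, and Bcam and Alcam did not. The summed mesothelial markers were higher in 8276KD (910 to 1036) than in 3NC (663 to 681), and their part was not tested.

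**Figure D2:**
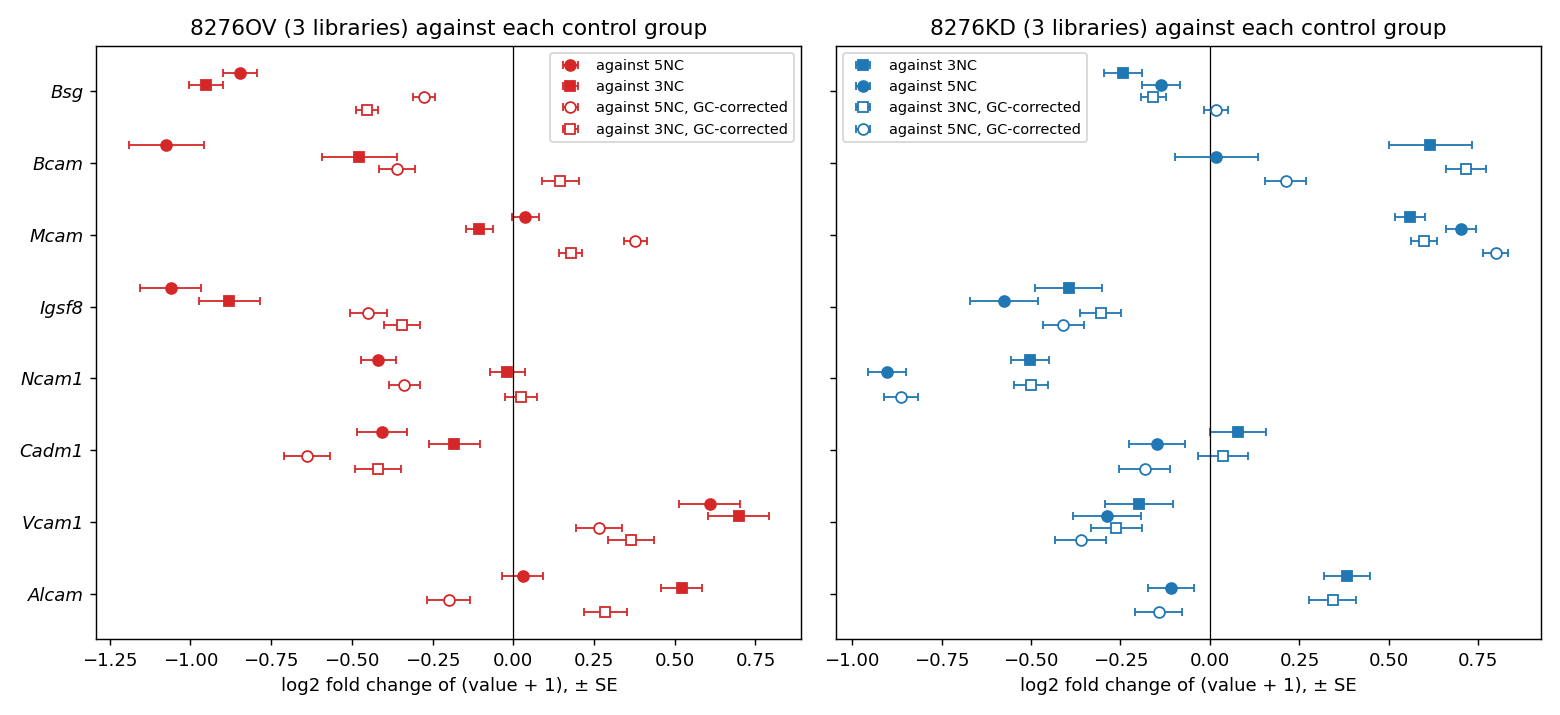
Log2 fold change of (value + 1) with its limma standard error for the 8 tested adhesion genes, for each manipulation against 5NC (circles) and 3NC (squares), as deposited (filled) and corrected for GC content (open). Igsf8 is below 0 at all 8 points, Mcam is above 0 by 0.56 and 0.70 under knockdown, and Bcam under knockdown is at 0.62 against 3NC and 0.018 against 5NC.

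The control groups differed from each other for 5 of 8 tested members, where 56.5% of all tested genes were called (30.6% higher and 25.9% lower in 5NC). Groups did not overlap for 7 of 8 members and for 69.5% of all tested genes. In 5NC, Bcam was higher than in 3NC by 0.60 (SE 0.12, adjusted p = 6.61e-04), Alcam by 0.49 (SE 0.064, adjusted p = 2.10e-05), Ncam1 by 0.40 (SE 0.054, adjusted p = 2.92e-05) and Cadm1 by 0.22 (SE 0.079, adjusted p = 0.0260), and Mcam was lower (log2 difference -0.14, SE 0.042, adjusted p = 0.0104). Igsf8 (0.18, adjusted p = 0.121), Bsg (-0.10, adjusted p = 0.111) and Vcam1 (0.090, adjusted p = 0.437) did not pass the threshold. The Cadm1 call was lost without 3NC replicate 1, 3NC replicate 2 or 5NC replicate 2 (0.20, 0.20 and 0.15, with adjusted p from 0.0824 to 0.137). The summed mesothelial markers were also higher in 5NC than in 3NC (1257 to 1277 against 663 to 681), and their part in these differences was not tested.

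Whether the manipulations had different effects was tested as the overexpression effect minus the knockdown effect, which share no library. Each effect was taken against its own listed control, so the gap between the control groups enters the result directly. The difference between the effects passed the threshold for 7 of 8 members, 1 higher and 6 lower, where 60.6% of all tested genes were called (24.5% higher and 36.2% lower). It was largest for Bcam (-1.69, SE 0.16, adjusted p = 4.77e-06), followed by Vcam1 (0.81, SE 0.13, adjusted p = 2.24e-04), Igsf8 (-0.67, SE 0.13, adjusted p = 9.07e-04), Bsg (-0.61, SE 0.075, adjusted p = 2.66e-05) and Mcam (-0.52, SE 0.059, adjusted p = 1.40e-05). Cadm1 (-0.48, adjusted p = 0.00219) and Alcam (-0.35, adjusted p = 0.00428) also differed, and for Ncam1 the difference was 0.085 (SE 0.076, adjusted p = 0.347). Alcam itself was higher under overexpression (2.13 to 2.37) than under knockdown (1.83 to 2.04), and its control groups differed by 0.49 on the log2 scale. Ncam1 was also higher under overexpression (10.45 to 11.23) than under knockdown (6.97 to 7.78), with a control difference of 0.40. For Bcam the control difference was 0.60.

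GC content of transcripts moved with the overexpression libraries. The slope of log2 values on GC content, per 10 points, was between -0.46 and -0.24 in 8276OV and between -0.040 and 0.20 in the other 9 libraries. The median log2 fold change under overexpression ran from 0.39 in the GC-poorest of 10 equal bins to -0.66 in the GC-richest. The median transcript of a tested gene has 49.7% GC. Bcam (60.9%), Igsf8 (58.4%) and Bsg (57.6%), which fell, are among the richest in GC, and Vcam1 (40.1%), which rose, is among the poorest. Mcam has 53.7%, Ncam1 49.9%, Alcam 44.0% and Cadm1 43.9%.

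After a correction for GC content, 8 of 8 members were called under overexpression, 2 higher and 6 lower, where 54.8% of all genes were (27.8% higher and 27.0% lower). Under knockdown 7 of 8 were called, 3 higher and 4 lower (all genes 48.4%, with 25.3% higher and 23.1% lower). Between the control groups 6 of 8 were called, 4 higher and 2 lower (all genes 64.5%, with 31.2% higher and 33.3% lower). The difference between the effects was called for 5 of 8, 1 higher and 4 lower (all genes 49.3%, with 24.9% higher and 24.4% lower).

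The GC-corrected overexpression fold changes were -0.28 for Bsg (adjusted p = 9.55e-06), -0.45 for Igsf8 (adjusted p = 1.18e-05), -0.36 for Bcam (adjusted p = 8.30e-05) and 0.27 for Vcam1 (adjusted p = 0.00560). Mcam was then called higher (0.38, adjusted p = 7.15e-07) and Alcam lower (-0.20, adjusted p = 0.0174), and the other called members kept call and direction, with -0.34 for Ncam1 and -0.64 for Cadm1. Against 3NC with the correction, Bcam turned to 0.15 (adjusted p = 0.0322) and Mcam from -0.11 to 0.18 (adjusted p = 4.54e-04), and Igsf8 (-0.34), Bsg (-0.45), Cadm1 (-0.42) and Vcam1 (0.36) kept their direction and call. Under knockdown the corrected values were 0.60 for Mcam, 0.72 for Bcam, -0.50 for Ncam1, -0.31 for Igsf8 and -0.16 for Bsg, all called as before, and Vcam1 was called lower (-0.26, adjusted p = 0.00706). Against 5NC with the correction, the knockdown value of Bsg was 0.017 (adjusted p = 0.695). In that comparison Bcam was called higher (0.21, adjusted p = 0.0045) and Cadm1 lower (-0.18, adjusted p = 0.037), neither of which was called without the correction. The differences between the effects of Igsf8 (-0.14, adjusted p = 0.156) and Bsg (-0.12, adjusted p = 0.0559) no longer passed the threshold after correction, and that of Bcam was -1.08 (adjusted p = 1.38e-07).

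**Figure D3:**
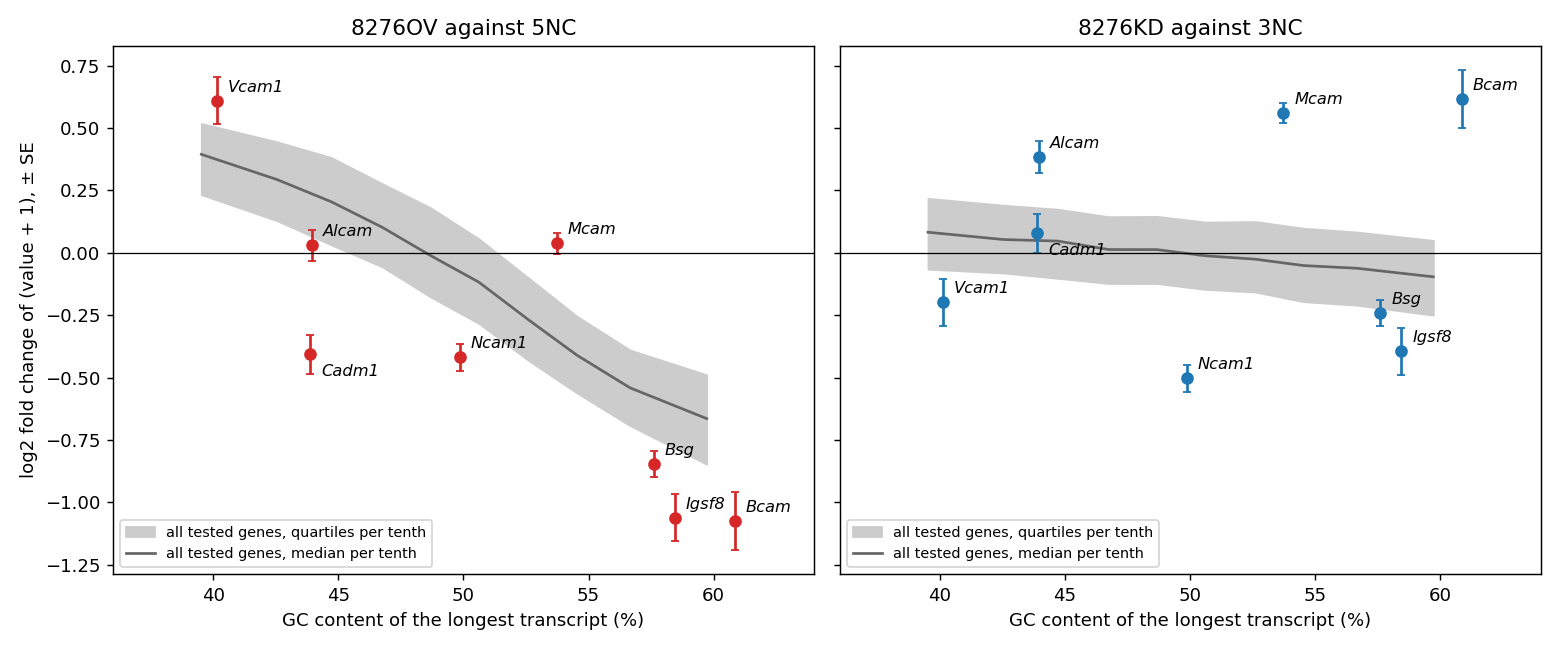
Log2 fold change against transcript GC content (percent) for the 8 tested adhesion genes, with limma standard errors, over the median and quartiles of all tested genes in 10 equal bins of GC content. Under overexpression the median runs from 0.39 to -0.66, and Bcam (-1.07) and Igsf8 (-1.06) lie below it, whereas under knockdown it runs from 0.082 to -0.096.

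Other immunoglobulin-type adhesion genes were examined in a list of 50, of which 44 are in the table and 18 were tested. Under overexpression 4 rose and 6 fell, where 30.3% and 44.1% of all tested genes did, with a median of -0.099 beside -0.088 over all genes. Under knockdown 7 rose and 1 fell, where 20.0% and 19.5% of all tested genes did, with a median of 0.11 beside -0.0048. Besides Nptn and Emb, the nectin Nectin2 fell by 0.71 under overexpression (adjusted p = 2.36e-06) and Cadm4, a relative of Cadm1, by 0.93 (adjusted p = 3.14e-06). Corrected for GC content these were -0.13 and -0.25, and both kept an adjusted p below 0.05. Kirrel fell by 0.29 against 5NC, a call lost with GC correction (-0.014, adjusted p = 0.816), and was at 0.30 against 3NC. Under knockdown Mpzl2 rose by 0.56, Nectin3 by 0.42 and the junctional molecule F11r by 0.32. F11r had means of 51.8 in 3NC, 91.0 in 5NC, 64.9 in 8276KD and 85.2 in 8276OV, so that against 5NC it was at -0.48. Against 5NC the calls of Mpzl2 (0.026, adjusted p = 0.809) and Nectin3 (0.14, adjusted p = 0.112) were lost. With 5NC as the knockdown control, 3 of the 18 rose and 5 fell, where 24.7% and 30.5% of all tested genes did.

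Ligands and binding partners formed a list of 36, of which 23 were tested. Under overexpression 9 rose and 12 fell (all genes 30.3% and 44.1%), with a median of -0.18 beside -0.088 over all genes, and with GC correction 9 rose and 8 fell with a median of 0.053 beside 0.0023. Under knockdown 8 rose and 5 fell (all genes 20.0% and 19.5%), with a median of 0.055 beside -0.0048. Fgfr1, a receptor that Ncam1 engages, fell by 1.12 under overexpression, the tetraspanin Cd82 by 0.80 and the galectin Lgals3, a ligand of Mcam, by 0.56. With GC correction these were -0.67, -0.36 and -0.13, all still called. Ppia rose by 0.60 and moesin (Msn), which links membrane proteins to actin, by 0.43, although Ppia has many processed pseudogene copies and its values are uncertain. Under knockdown the tetraspanin Cd81 rose by 0.69 and ezrin (Ezr) by 0.46, and Itgb7, Slc16a3 and Lgals3 fell by 1.18, 0.55 and 0.40. None of these 5 knockdown calls kept its direction against 5NC, where Lgals3 was at 0.57, Slc16a3 at 1.19, Itgb7 at 0.16, Ezr at -0.13 and Cd81 at -0.017. Itgb7 had means of 2.76 in 3NC, 0.48 in 5NC, 0.66 in 8276KD and 0.37 in 8276OV. It passed the filter on low values only through 3NC, which favours a fall from 3NC, and it is among the 5 counted as lower.

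Of 13 genes of enzymes that cut or shed adhesion molecules and their inhibitors, 12 were tested. Under overexpression 3 rose and 6 fell (all genes 30.3% and 44.1%), with a median of -0.14 beside -0.088. Under knockdown 3 rose and 4 fell (all genes 20.0% and 19.5%), with a median of -0.025 beside -0.0048. The metalloproteinases Mmp2, Mmp14 and Adam15 fell by 0.60, 0.59 and 0.73 under overexpression, Bace1 by 0.39 and the inhibitor Timp2 by 0.40. With GC correction Mmp2 was at -0.15, Mmp14 at -0.21, Adam15 at -0.14 and Bace1 at -0.30, all still called, and the call of Timp2 was lost (-0.065, adjusted p = 0.0949). Against 3NC, Mmp2 was at 0.22, Mmp14 at -0.20 and Timp2 at 0.53. Under knockdown the inhibitor Timp1 fell by 0.64, Mmp9 by 0.63, Adam9 by 0.36 and Adam8 by 0.29. Mmp9 had means of 1.11 in 3NC, 0.44 in 5NC, 0.37 in 8276KD and 0.30 in 8276OV. It passed the filter on low values only through 3NC, which favours a fall from 3NC, and it is among the 4 counted as lower. Against 5NC the calls of Timp1 (-0.10, adjusted p = 0.189), Mmp9 (-0.072, adjusted p = 0.457) and Adam9 (-0.093, adjusted p = 0.180) were lost, and Adam8 was at 0.75 (adjusted p = 5.33e-07). Timp3 rose by 0.40, but its means of 32.5 in 3NC, 124.7 in 5NC, 43.1 in 8276KD and 113 in 8276OV put it 1.51 lower than in 5NC on the log2 scale.

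**Figure D4:**
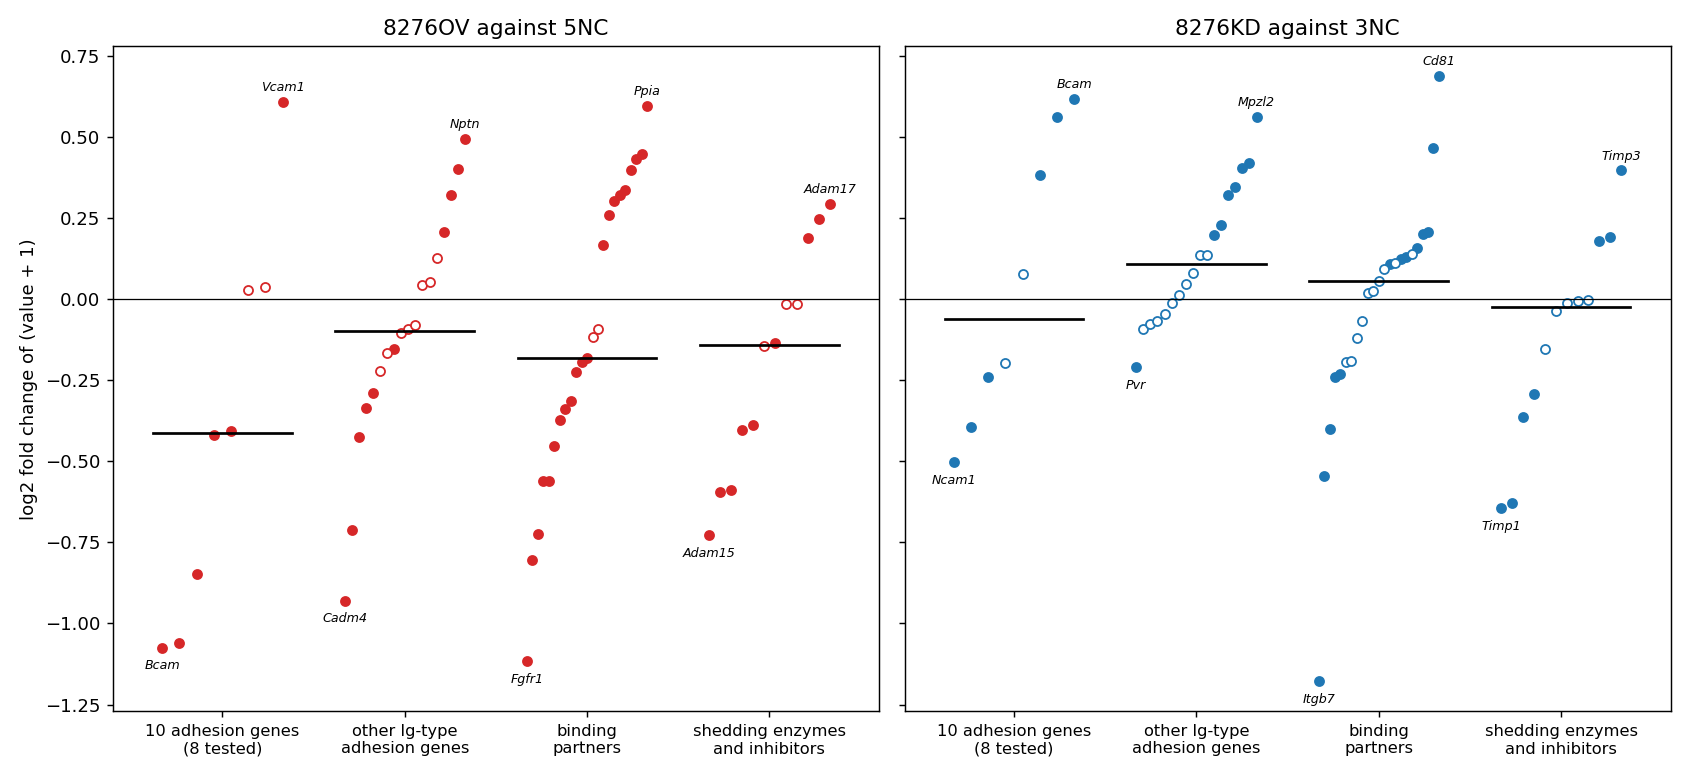
Log2 fold change of (value + 1) of each tested gene of the 4 lists under overexpression and under knockdown, with filled points where the adjusted p was below 0.05, a bar at each list's median, and names on the highest and lowest gene. The medians under overexpression are -0.41 for the 10 adhesion genes (8 tested), -0.099, -0.18 and -0.14, and those under knockdown are -0.060, 0.11, 0.055 and -0.025.

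Log2 levels, not corrected for GC content, were correlated across the 12 libraries, which share the 4 groups and therefore are no independent points. Pearson's r was 0.91 for Igsf8 and Bsg and 0.75 for Bcam and Cadm1. It was -0.89 for Ncam1 and Mcam, -0.85 for Vcam1 and Bsg and -0.83 for Vcam1 and Bcam. The part of GC content in these values and in the nearest genes below was not tested. Among all tested genes, the closest to Mcam in pattern were Stmn4 (r = 0.992), Calr (0.983) and Glcci1 (0.974). The closest to Ncam1 were Nfil3 (0.982), Bcl7b and Kif21b, and the closest to Bsg were Rhoc (0.996), Lrp5 (0.993) and Rabac1 (0.992). Hspb1 (0.990), Csrp1 and Wbp1l were closest to Bcam, Aldh2 (0.992), Prrc2b and Cby1 to Igsf8, and Nedd1 (0.980), Senp8 and Zfp558 to Vcam1. Alcam lay nearest to Fam76a (0.985), Smyd1 and Pspc1, and Cadm1 nearest to Fryl (0.928), Lmtk2 and Cnot10. Of the tested members, Ncam1, Mcam and Cadm1 lie on chromosome 9, which holds 5.64% of the tested genes. Icam1, which was not tested, lies there too, so that 4 of the 10 do.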

How the data were processed

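RNA was sequenced in 12 libraries, 3 per group. The authors deposited 1 table of values per gene, read here as FPKM from the values, since no header or label names the unit and TPM is possible. Per the submitters' processing notes the genome is mm10; aligner, quantifier and use of strand were not given in the sources used here. The count test foreseen for counts was not used. For 27 genes the symbol was replaced by RefSeq's, and 17458 genes have a RefSeq entry. The 11360 genes at 1 or more in 3 or more libraries were tested on log2(value + 1), pseudocount 1, with limma 3.58.1 in R 4.3.3 (joint fit of the 4 groups, eBayes with trend and robust, two-sided, Benjamini-Hochberg over all tested genes, threshold 0.05), after the procedure was tested on simulated data. Fold changes are on this scale, which understates changes of low genes. SDs and SEs rest on 3 libraries per group. Tables were joined with Python 3.11.15 and pandas 2.3.3.

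The correction for GC content removed from each library's deviations a natural spline (5 degrees of freedom) fitted to transcript GC content from GENCODE, for the 11197 tested genes with one (98.6%). Alternatives were the other control or both controls, other scalings, filters and pseudocounts, fits without trend and robust or on the compared groups alone, the replicate number as a block, and leaving out each library. GC correction together with the other control was chosen after seeing the data. The members and lists were chosen with earlier results of these data known. The text names all members, up to 5 genes per list and manipulation with the smallest adjusted p among called genes whose groups did not overlap, and the 3 genes most like each member by Pearson's r. Slc16a1, Itga4, Itgal, Itgb1 and Itgb2 are named as partners, chosen after their values were seen.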

Additional observations from a re-analysis of the deposited data

How the results depend on the processing

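Directions and calls of several members under overexpression and knockdown depended on the control or on GC content, and some overexpression calls also on the scaling. Igsf8 kept call and direction in both manipulations with either control, with and without GC correction. The same held for Mcam and Ncam1 under knockdown, and for Vcam1, Bsg and Cadm1 under overexpression. Against 5NC, Mcam was called higher with median-of-ratios factors (0.13, adjusted p = 0.0115) and with quantile normalization (0.11, adjusted p = 0.0301). Alcam was called higher with quantile normalization (0.18, adjusted p = 0.0255). The following changed direction. Under overexpression with 3NC as the control, Mcam was at -0.11, Kirrel at 0.30, Mmp2 at 0.22 and Timp2 at 0.53, and with both controls together Mcam was at -0.034, Kirrel at 0.0063 and Timp2 at 0.060. With GC correction Alcam was at -0.20, with and without the block, and with GC correction against 3NC Ncam1 was at 0.024 and Bcam at 0.15. Leaving out a library put Alcam between -0.0046 (without 8276OV replicate 3) and 0.049 (without 8276OV replicate 2). Under knockdown with 5NC as the control, Alcam was at -0.11, Cadm1 at -0.15, F11r at -0.48, Itgb7 at 0.16, Cd81 at -0.017, Ezr at -0.13, Lgals3 at 0.57, Slc16a3 at 1.19, Timp3 at -1.51 and Adam8 at 0.75. With both controls Cadm1 was at -0.035, F11r at -0.081, Lgals3 at 0.086, Slc16a3 at 0.32, Timp3 at -0.56 and Adam8 at 0.23. With GC correction against 5NC, Alcam was at -0.14, Cadm1 at -0.18 and Bsg at 0.017. The cause of these changes was not tested.

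Between the control groups, a filter of at least 5 in at least 3 libraries left 3 members called in place of 5. Alcam and Cadm1 were then no longer tested. Quantile normalization lost Cadm1 (0.18, adjusted p = 0.0604), and with median-of-ratios factors Bsg was called lower in 5NC (-0.13, adjusted p = 0.0392). For Ncam1, quantile normalization put the difference between the effects at 0.20 (adjusted p = 0.0390). Among all genes, knockdown calls rose from 4477 to 6799 with GC correction against 5NC. Overexpression calls split into 3447 higher and 5005 lower as deposited, 4428 and 3997 with quantile normalization, which moved the median of all genes from -0.088 to 0.029, and 4168 and 4284 with median-of-ratios factors.

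Leaving out each library gave 6 to 6 members called under overexpression, 6 to 7 under knockdown, 4 to 5 between the control groups and 7 to 7 for the difference. Replicate numbers did not pair the libraries: deviations of same-numbered libraries correlated at -0.18 to -0.028 for 8276OV and 5NC, -0.18 to -0.0048 for 8276KD and 3NC, and 0.041 to 0.088 for 5NC and 3NC, where alone each library correlated best with its own number. With the replicate number as a block 6, 6, 5 and 7 members were called, as without it, and 8407, 4434, 6380 and 6833 genes. Depth limits Icam1 and L1cam, whose values rest on few fragments, and low values were rounded to 2 decimals in the deposited table.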

Other observations

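Some genes of the other lists differed between 3NC and 5NC by more than between either manipulation and its listed control. These were picked after their values were seen. F11r, a tight junction molecule, was higher in 5NC than in 3NC by 0.80 on the log2 scale (SE 0.041, adjusted p = 2.39e-09), and Pvr, a nectin-like molecule, was lower (log2 difference -0.78, SE 0.058, adjusted p = 1.01e-07), with means of 43.3 in 3NC and 24.8 in 5NC. Timp3, an inhibitor of metalloproteinases, was higher by 1.91 (SE 0.048, adjusted p = 7.07e-12), and Slc16a3 was lower (log2 difference -1.74, SE 0.094, adjusted p = 4.08e-09). Of the 18 tested genes of the other immunoglobulin-type list, 9 were higher and 2 lower in 5NC, where 30.6% and 25.9% of all tested genes were.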
